A study of Homo sapiens with 6 samples.

Results

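Genes of the nuclear pore and of its transport receptors were examined in 22RV1, a human castration-resistant prostate cancer (CRPC) cell line. Members were all gene symbols beginning with NUP, KPNA, KPNB, XPO, IPO or TNPO followed by a number, or by T in the case of XPOT, with pseudogenes left out. Of the 26255 genes in the deposited tables, 48 were members, and 2 further symbols were left out as pseudogenes. The samples were 3 of 22RV1 cells treated with 10 nM bruceantin (BCT) for 24 h and 3 treated for the same time with the vehicle, DMSO, all in medium with 10% fetal bovine serum. Bruceantin is a quassinoid, a plant triterpene, and the RNA-seq experiment asked which genes it changes in these cells. The labels do not say whether the samples of a group came from separate cultures, so the p-values measure the spread between these samples, which may be technical. Expression was deposited as FPKM, fragment counts divided by transcript length and by the reads mapped in a sample, so levels can be set side by side between genes, but an amount of RNA per cell was not measured. In such bulk samples, fewer cells of a type and less RNA per cell cannot be told apart.

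The nuclear pore complex is a ring of nucleoporins set into the nuclear envelope. Scaffold rings, the Y complex and the inner ring, hold a central channel lined with disordered phenylalanine-glycine repeats, and further nucleoporins face the cytoplasm or form a basket on the nuclear side. Large cargo crosses only with a transport receptor: importins load cargo in the cytoplasm, exportins load it in the nucleus, and the small GTPase Ran, in its GTP form in the nucleus, releases the first and is bound by the second. Importin alphas (KPNA genes) are adaptors that link cargo with a classical nuclear localization signal to importin beta (KPNB1).

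FPKM added up to 1169649 to 1572321 in the DMSO samples and 757534 to 799838 in the BCT samples, and the single row MIR6087 held 43.5% to 55.3% and 31.7% to 32.5% of these totals. FPKM gives no read numbers. The most common ratio of low values (0.02 to 0.15 FPKM) put the depth, with DMSO replicate 1 set to 1, at 0.877 to 1 for DMSO and 1.05 to 1.13 for BCT. All 7 prostate luminal markers examined (KLK2, KLK3, HOXB13, FOXA1, KRT8, KRT18 and EPCAM) had a mean of at least 1 FPKM. This shows their presence alone, and their changes with BCT are not given here. Of the 5 fibroblast markers 1 did, with a summed level of 2.57 to 2.73 FPKM with DMSO and of 5.83 to 7.03 FPKM with BCT, and COL1A2, COL3A1, DCN and LUM stayed below 1 while COL1A1 was called higher (1.95). Of 4 leukocyte markers 1 did, CD68, which was called higher (1.31), with a summed level of 2.20 to 3.29 FPKM with DMSO and of 5.37 to 8.63 FPKM with BCT, and PTPRC, CD3E and CD14 stayed below 1. None of the 3 endothelial markers reached it. The part of such cells in the results was not tested.

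As deposited, most members changed by less than the fold change threshold given below. The median size of their change was also smaller than that of all tested genes. Of the 48 members, 44 averaged 1 FPKM or more across all 6 samples, and these were tested among 12729 genes with limma. A gene was called where its log2 fold change exceeded 0.85 in size with an FDR below 0.05, and "rose" and "fell" are used for called genes. With BCT, 5 of the 44 tested members (NUP62CL, NUP210, IPO5, IPO9 and IPO4) fell, or 11.4%, where 17.8% of all tested genes were called lower. A single member, TNPO1, rose, which is 2.27% of the members against 13.9% of all tested genes. By the FDR alone, 17 members were lower (38.6%, against 42.8% of all tested genes) and 13 were higher (29.5%, against 39.3%). All BCT samples lay below all DMSO samples in 21 members (47.7%, against 44.3% of all tested genes) and above them in 14 (31.8%, against 41.0%). The median log2 fold change of the tested members was -0.06, against -0.04 for all tested genes, and the median size of the change, regardless of direction, was 0.34 against 0.58. The 4 members that did not reach the filter were KPNA7, NUP210L, the read-through transcript IPO11-LRRC70 and the antisense RNA IPO9-AS1.

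**Figure D1:**
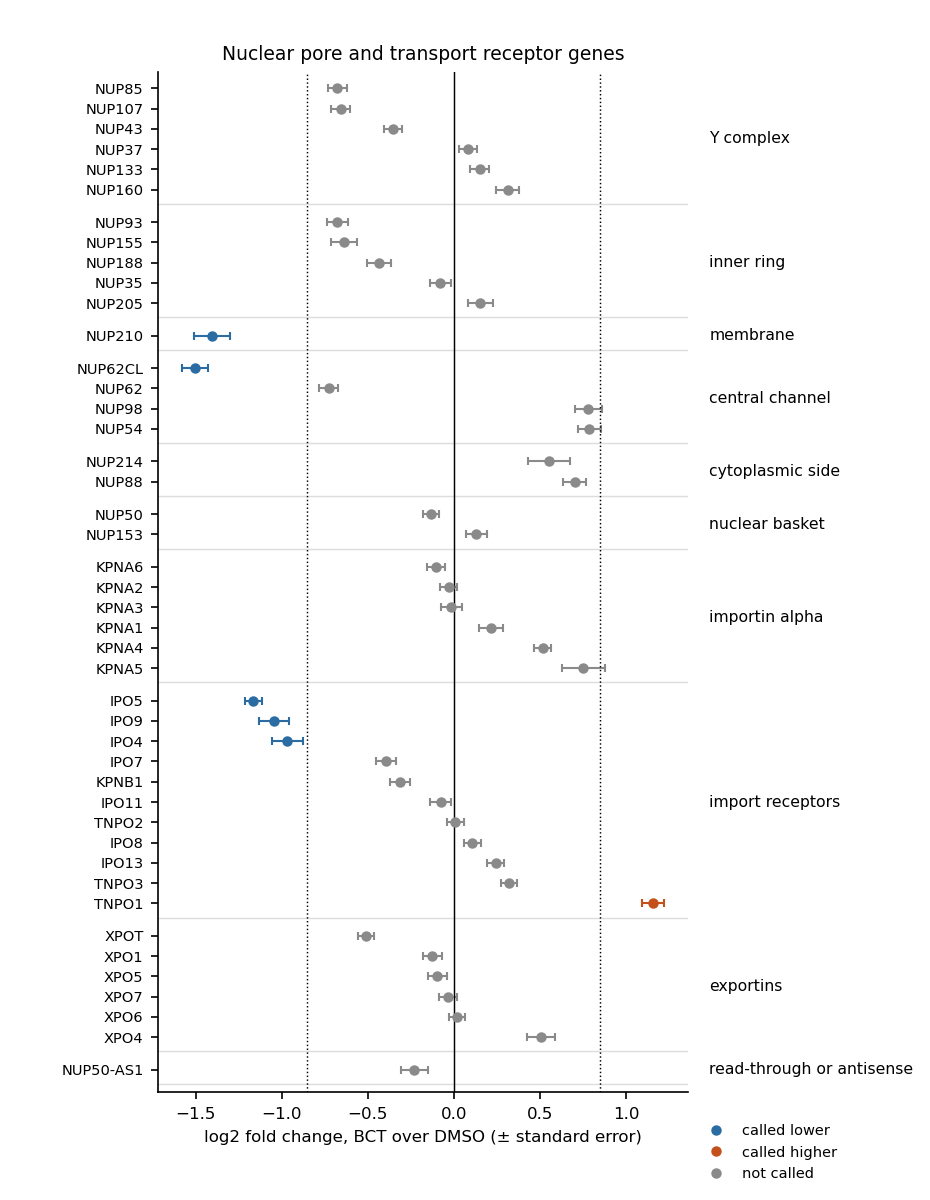
Log2 fold change of BCT over DMSO on log2(FPKM + 0.1) for each of the 44 tested members, by class, with the standard error from limma (horizontal bars). Dotted lines mark the fold change threshold of 0.85. As deposited, the 5 members called lower lie left of it (0 do with equal FPKM sums) and TNPO1 lies right of it, while NUP54 (0.79) and NUP98 (0.78) end just inside.

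The fold changes depend on how the samples are scaled. Rescaling all samples to equal FPKM sums moved the median of all tested genes from -0.04 to 0.72, and leaving MIR6087 out of the sums moved it to 0.34. A single factor per sample moves all genes nearly alike, so the distance of the members' median to that median is kept by construction. It was -0.01 under both scalings and -0.02 as deposited. With equal sums 0 members were called lower and 16 higher, beside 5.25% and 44.1% of all tested genes, and without MIR6087 the counts were 2 and 8, beside 9.49% and 26.5%. Values below are as deposited unless a scaling is named.

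The largest fall among the import receptors was that of IPO5, which carries ribosomal proteins and histones into the nucleus. Its DMSO samples had 65.8, 67.0 and 63.8 FPKM and its BCT samples 30.2, 28.4 and 28.9 FPKM. The groups were far apart compared with their spread. Its log2 fold change was -1.16 (SE 0.0488, adjusted p = 5.8e-07), and it went from the 5th to the 20th highest mean level among the 48 members. IPO5 lies on chromosome 13 (GRCh37, chr13:98605912-98676550, plus strand).

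IPO9, an importin for histones H2A and H2B, and IPO4, which imports histones H3 and H4 among other cargo, fell too. IPO9 had 25.9, 28.0 and 25.9 FPKM with DMSO and 14.7, 11.8 and 12.1 FPKM with BCT (log2 fold change -1.05, SE 0.0873, adjusted p = 8.7e-06). IPO4 had 45.3, 48.0 and 46.5 FPKM with DMSO and 27.7, 22.0 and 22.0 FPKM with BCT (log2 fold change -0.97, SE 0.0897, adjusted p = 1.5e-05). In both genes BCT replicate 1 was the highest of the treated samples, and it remained below every DMSO sample. IPO4 was the called member nearest to the fold change threshold. It was no longer called after a correction for GC content and transcript length (the GC and length correction) (-0.76), and neither gene was called in a test against the threshold itself (adjusted p = 0.44 for IPO4 and 0.12 for IPO9). Without MIR6087 in the sums the log2 fold changes of IPO5, IPO9 and IPO4 were -0.78, -0.66 and -0.58, and with equal sums they were -0.40, -0.28 and -0.20, against 0.34 and 0.72 for the median of all genes, and none of these passed the fold change threshold. IPO9 lies on chromosome 1 (GRCh37, chr1:201798277-201853419, plus strand), and its deposited range also holds NAV1, which was not called (0.48). IPO4 lies on chromosome 14 (GRCh37, chr14:24649425-24658075, minus strand) and shares its range with REC8, which did not reach the filter.

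TNPO1, also known as transportin-1, imports RNA-binding proteins such as hnRNP A1, and it was the only tested member called higher. Its values were 27.4, 29.6 and 26.3 FPKM with DMSO and 59.2, 61.3 and 65.5 FPKM with BCT, so the lowest treated sample exceeded the highest control. The log2 fold change was 1.16 (SE 0.0631, adjusted p = 1.3e-06), and its level went from the 23rd to the 7th highest among the members. After the GC and length correction it was 0.76, under the fold change threshold, with an adjusted p of 1.7e-06. TNPO1 lies on chromosome 5 (GRCh37, chr5:72112139-72212560, plus strand). TNPO2, its close paralog, had 37.2, 40.2 and 38.6 FPKM with DMSO and 39.1, 39.8 and 37.9 FPKM with BCT, and the 95% interval of its log2 fold change was -0.11 to 0.12. TNPO1 therefore ran at 0.717 ± 0.0322 times the FPKM of TNPO2 with DMSO and at 1.60 ± 0.117 times with BCT (SD, n = 3), a ratio that a scaling of whole samples leaves as it is. Against IPO5 the ratio was 0.423 ± 0.0165 with DMSO and 2.13 ± 0.156 with BCT. These ratios were chosen after the values were seen and were not tested. The GC and length correction acts on each gene and can change them. It put TNPO1 at 0.76 and TNPO2 at 0.14, and the ratios were not computed after it.

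Among the other import receptors, KPNB1, or importin beta, which carries importin alpha and its cargo, had 136.9, 144.4 and 129.9 FPKM with DMSO and 115.6, 108.2 and 106.7 FPKM with BCT. The groups did not overlap. Its log2 fold change of -0.31 (95% interval -0.45 to -0.18, adjusted p = 0.00093) passed the FDR but not the fold change threshold, and it turned to 0.07 without MIR6087 and 0.45 with equal sums. IPO7, a receptor for ribosomal proteins that also pairs with importin beta to import the linker histone, was lower by the FDR (-0.39), with 56.2 ± 1.83 FPKM with DMSO and 42.7 ± 2.27 FPKM with BCT, and it was -0.66 after the GC and length correction and 0.37 with equal sums. TNPO3, which imports SR splicing factors, and IPO13, which works in both directions, were higher by the FDR at 0.32 and 0.24, and IPO13 was at 0.43 after the GC and length correction. IPO8, which imports Argonaute and SMAD proteins (0.11, 95% interval -0.01 to 0.22), and IPO11, which imports ubiquitin-conjugating enzymes (-0.08, interval -0.21 to 0.06), did not pass the FDR.

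**Figure D2:**
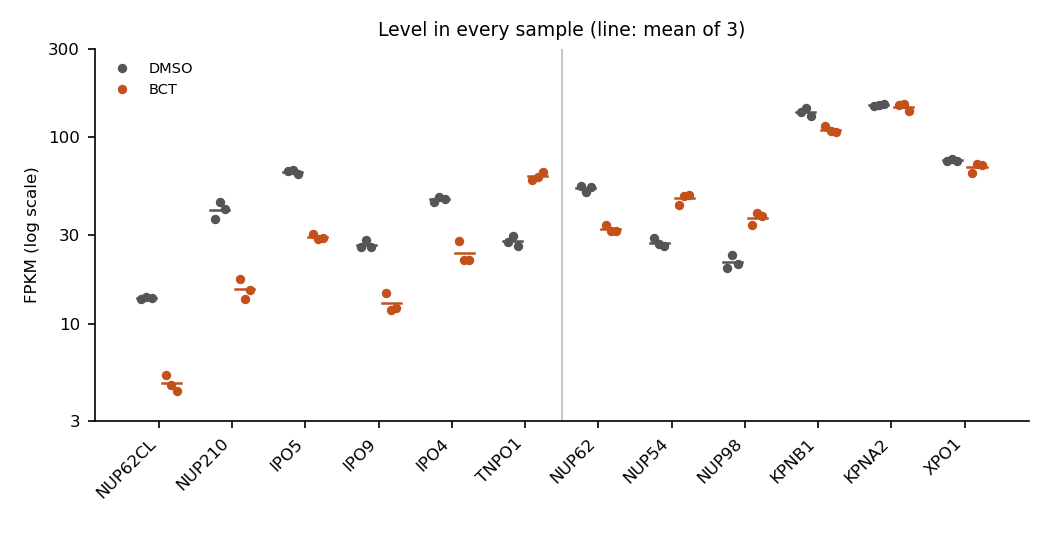
FPKM in each sample on a log axis for the 6 called members (left of the line) and for 6 others (right of it), with DMSO in grey and BCT in orange and a short line at the mean of 3. As deposited, no BCT point overlaps a DMSO point in the called members, TNPO1 crosses upward from 27.7 to 62.0 FPKM, and the KPNA2 groups overlap.

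No importin alpha was called. KPNA2 was the most abundant member in both groups, with 147.3, 149.9 and 151.4 FPKM with DMSO and 149.4, 150.5 and 139.3 FPKM with BCT. Those groups overlapped, and the 95% interval of its log2 fold change (-0.03) was -0.14 to 0.08. KPNA4 (0.52, from 13.8 ± 0.365 to 19.7 ± 0.156 FPKM), KPNA5 (0.75, from 2.16 ± 0.343 to 3.69 ± 0.252 FPKM) and KPNA1 (0.22, from 13.3 ± 0.837 to 15.4 ± 0.964 FPKM) were higher by the FDR, with adjusted p of 1.7e-05, 0.00059 and 0.019. After the GC and length correction KPNA4 was at 0.19, KPNA5 at 0.31 and KPNA1 at -0.04. KPNA3 (-0.02, 95% interval -0.16 to 0.12) and KPNA6 (-0.11, interval -0.23 to 0.02) did not pass the FDR. KPNA7, an importin alpha known from the early embryo, stayed close to or below 1 FPKM, with 0.116, 0.225 and 0.302 FPKM with DMSO and 0.706, 1.0 and 0.835 FPKM with BCT. It was called only in the fit without a filter on low values (log2 fold change 1.63, adjusted p = 0.001).

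Shares within the importin alphas do not depend on the scaling of a sample. KPNA2 held 72.6% ± 1.0 of the importin alpha FPKM with DMSO and 69.1% ± 1.3 with BCT (SD, n = 3). KPNA4 went from 6.68% ± 0.157 to 9.31% ± 0.196 and KPNA5 from 1.05% ± 0.166 to 1.74% ± 0.160, while KPNA6 went from 7.61% ± 0.154 to 6.87% ± 0.231. In KPNA2, KPNA4, KPNA5, KPNA6 and KPNA7 the shares of the groups did not overlap, and the two-sided exact permutation test gave p = 0.1, the smallest that 3 samples against 3 allow. For the shares of KPNA1 (6.44% to 7.29%) and KPNA3 (5.48% to 5.27%) the exact permutation p was 0.2 and 0.5. Over these 7 tests no adjusted p can fall below 0.1, so the design cannot pass 0.05.

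**Figure D3:**
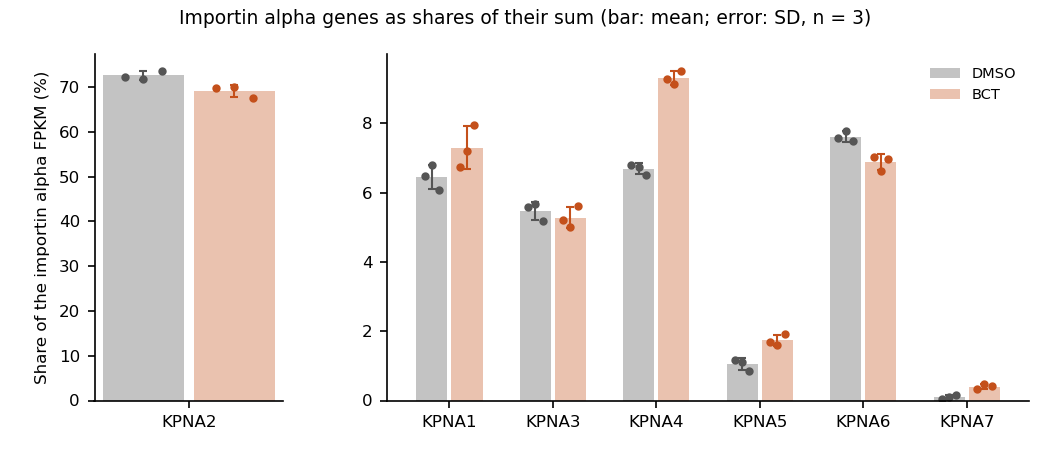
Share of the summed importin alpha FPKM held by each KPNA gene, in percent, with KPNA2 on its own axis. Bars are means of 3 samples with the SD and points are samples. KPNA2 goes from 72.6% to 69.1%, and the largest gain in points is that of KPNA4, from 6.68% to 9.31%.

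No exportin was called. XPO1, the main export receptor for proteins with leucine-rich export signals, had 75.0, 76.7 and 74.9 FPKM with DMSO and 64.5, 71.9 and 71.4 FPKM with BCT. The treated samples all lay lower, but the log2 fold change of -0.13 (95% interval -0.25 to 0, adjusted p = 0.061) did not pass the FDR. XPOT, which exports tRNA, had 92.8, 95.6 and 94.7 FPKM with DMSO and 67.1, 67.1 and 64.5 FPKM with BCT, and it was lower by the FDR (-0.51, adjusted p = 1.1e-05), although with equal sums its log2 fold change was 0.26. XPOT thus exceeded XPO1 in every DMSO sample, whereas with BCT their ranges overlapped. XPO4, which exports the translation factor eIF5A, was higher by the FDR (0.50, from 4.08 ± 0.260 to 5.83 ± 0.372 FPKM), but at 0.14 it did not pass it after the GC and length correction (adjusted p = 0.079). XPO5, the exporter of microRNA precursors, had 16.0, 17.7 and 16.1 FPKM with DMSO and 15.6, 15.7 and 15.4 FPKM with BCT (-0.10, 95% interval -0.23 to 0.03). XPO6, which exports actin (0.02, interval -0.09 to 0.13), and XPO7, a receptor of broad cargo (-0.03, interval -0.15 to 0.08), had overlapping groups.

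Among the nucleoporins, 2 of 20 tested were called lower and 0 higher, and by the FDR alone 10 were lower and 6 were higher, where 17.8% and 13.9% of all tested genes were called and 42.8% and 39.3% passed the FDR. NUP62CL, whose protein resembles the C-terminal part of NUP62 and whose role is less well known, had the largest fall of all members. It had 13.6, 13.9 and 13.7 FPKM with DMSO and 5.28, 4.71 and 4.37 FPKM with BCT (log2 fold change -1.50, SE 0.0749, adjusted p = 9.9e-07). NUP210, a membrane-spanning nucleoporin, had 36.3, 44.9 and 41.3 FPKM with DMSO and 17.4, 13.6 and 15.2 FPKM with BCT (-1.40, SE 0.105, adjusted p = 5e-06). In both genes the groups lay far apart, and with equal sums the log2 fold changes of -0.74 and -0.64 kept their direction but not the call. NUP62CL lies on the X chromosome (GRCh37, chrX:106366657-106449663, minus strand) and NUP210 on chromosome 3 (chr3:13357735-13461822, minus strand). NUP210L, a paralog of NUP210, was at or below 0.0240 FPKM in all samples.

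As deposited, the Y complex members differed in direction, while the inner ring members that passed the FDR were all lower. In the Y complex, the outer scaffold, NUP107 had 65.4, 64.6 and 60.2 FPKM with DMSO and 41.9, 39.3 and 39.3 FPKM with BCT (-0.66, adjusted p = 8.2e-06). NUP85 (-0.68) and NUP43 (-0.35) were also lower by the FDR, NUP160 (0.31) and NUP133 (0.15) were higher, and NUP37 (0.08, 95% interval -0.04 to 0.20) did not pass. After the GC and length correction NUP160 was at 0.17 and NUP133, at 0.02, no longer passed the FDR (adjusted p = 0.73). With equal sums the 3 lower genes turned to 0.11, 0.09 and 0.41, below the median of all genes at 0.72. The interval of NUP107 (-0.78 to -0.53) and that of NUP160 (0.16 to 0.47) lay apart, and no test of that difference was made. In the inner ring, which anchors the channel, NUP93 (-0.68), NUP155 (-0.64) and NUP188 (-0.44) were lower by the FDR, whereas NUP205 (0.15) and NUP35 (-0.08) did not pass it. The inner ring's median stood between -0.41 and -0.36 relative to the median of all genes under the 6 scalings. Of these, only quantile normalization (-0.41) and the GC and length correction (-0.36) could move that distance. The others differ by a single factor per sample, which keeps it by construction. The values of NUP93, NUP155 and NUP188 themselves turned to 0.09, 0.13 and 0.33 with equal sums. NUP107 (-0.89) and NUP155 (-0.90) crossed the fold change threshold after the GC and length correction. The deposited range of NUP188 also holds DOLK (-0.75, not called).

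In the central channel the genes parted. NUP62, which forms the channel's core together with NUP54 and NUP58, had 54.9, 50.7 and 54.4 FPKM with DMSO and 33.7, 31.3 and 31.5 FPKM with BCT (-0.73, adjusted p = 5.5e-06). NUP54 had 28.7, 26.9 and 26.1 FPKM with DMSO and 43.4, 48.8 and 49.0 FPKM with BCT (0.79, adjusted p = 8.9e-06). NUP62 and NUP54 thus differed in the direction of their change, and NUP54 ran at 0.511 ± 0.0280 times the FPKM of NUP62 with DMSO and at 1.47 ± 0.157 times with BCT. Their partner NUP58, under the symbol NUPL1 outside the rule, was slightly higher by the FDR (0.15, from 34.6 ± 1.43 to 38.4 ± 0.666 FPKM, adjusted p = 0.02). NUP98, whose transcript also encodes the Y complex protein NUP96, had 20.0, 23.4 and 20.9 FPKM with DMSO and 33.7, 39.2 and 37.7 FPKM with BCT (0.78, adjusted p = 2.7e-05), and its ratio to NUP62 went from 0.403 ± 0.0516 to 1.15 ± 0.134. Both ratios were chosen after the values were seen. NUP54 and NUP98 were the uncalled members nearest to the fold change threshold, and NUP54 was called after quantile normalization (0.86). With equal sums NUP62 turned to 0.04. The deposited range of NUP98 holds PGAP2, which was called lower (-1.52), and that of NUP62 holds ATF5 (0.33, not called). The library kit, TruSeq RNA v2, does not mark strand, so reads of overlapping genes on opposite strands cannot be told apart.

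On the cytoplasmic side, NUP88 (0.70, from 38.3 ± 2.39 to 62.4 ± 3.86 FPKM) and its partner NUP214 (0.55, from 6.04 ± 1.02 to 8.84 ± 0.819 FPKM) were both higher by the FDR. They were at 0.81 and 0.57 after quantile normalization, and both at 0.51 after the GC and length correction. The scalings by a single factor per sample raised all genes together, so a positive sign there was fixed in advance. The range of NUP88 holds C1QBP, which was called lower (-0.87), RABEP1 (-0.22) and RPAIN (0.05). In the basket, NUP153, to which many receptors bind, had 23.2, 25.6 and 23.9 FPKM with DMSO and 24.9, 27.7 and 27.1 FPKM with BCT, groups that overlapped (0.13, 95% interval -0.01 to 0.27). NUP50, which helps to release importin alpha from its cargo, was slightly lower by the FDR (-0.13, from 30.9 ± 0.816 to 28.2 ± 0.426 FPKM, adjusted p = 0.029), but was -0.28 after the GC and length correction, 0.25 without MIR6087 and 0.63 with equal sums. Its neighbour on the other strand, NUP50-AS1, was also lower by the FDR (-0.23, adjusted p = 0.025) and was 0.15 and 0.52 under the same scalings. IPO9-AS1 lay between 0.491 and 0.688 FPKM and IPO11-LRRC70 between 0 and 0.206 FPKM.

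Summed over genes, the nucleoporin members held 656.7 ± 19.9 FPKM with DMSO and 610.8 ± 10.2 FPKM with BCT (SD, n = 3), a ratio of 0.930 that became 1.22 without MIR6087 in the sums and 1.57 with equal sums. The import receptors of the importin beta family held 478.1 ± 17.1 and 412.2 ± 6.18 FPKM, a ratio of 0.862 that became 1.13 and 1.46. The exportins held 281.8 ± 5.43 and 247.1 ± 5.49 FPKM, a ratio of 0.877 that became 1.15 and 1.48. In these 3 sums every BCT sample was below every DMSO sample as deposited, with an exact permutation p of 0.1, the smallest this design allows. The importin alphas held 205.8 ± 2.62 and 211.8 ± 4.97 FPKM, a ratio of 1.03 that became 1.34 and 1.74, with an exact permutation p of 0.2. Over the 4 sums no adjusted p can fall below 0.1. Both rescalings multiply each sample by a single factor, which moved nearly all genes upward together in BCT relative to DMSO. On the log2 scale, the median tested gene went from -0.04 as deposited to 0.34 without MIR6087 and 0.72 with equal sums. The rescaled ratios therefore do not show by themselves that a class was higher with BCT.

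**Figure D4:**
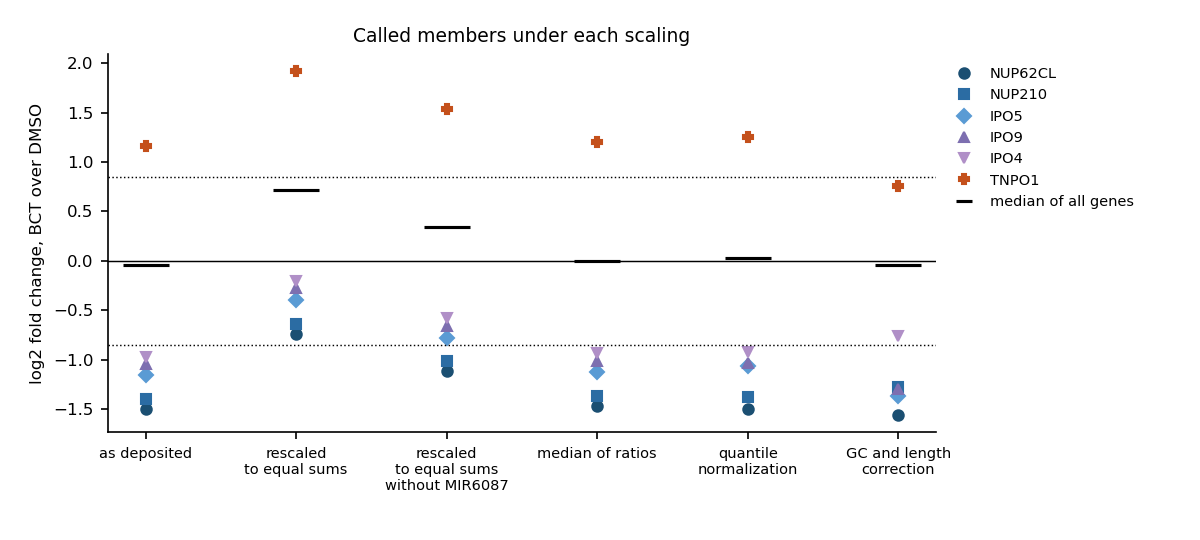
Log2 fold change of the 6 called members under each scaling, with the median of all tested genes as a black bar and the fold change threshold as dotted lines. TNPO1 lies above 0 and the other members below 0 under every scaling, with equal sums the lower members lie between -0.74 and -0.20 while the median of all genes lies at 0.72, and after the GC and length correction TNPO1 and IPO4 lie inside the threshold.

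Treated replicates were not alike in the size of these changes. BCT replicate 1 had the smallest change of the BCT samples in 6 of the 6 called members and in 31 of the 44 tested members. The share over all tested genes is not given here, so whether this is particular to the members was not tested. Without BCT replicate 1, and without each other sample in turn, 5 members were called lower and 1 higher.

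Genes of nuclear transport outside the symbol rule were described by a fixed list of 39, all of which passed the filter. Of these, 4 were called lower and 2 higher, and by the FDR alone 18 were lower and 14 higher, beside 17.8% and 13.9% called and 42.8% and 39.3% past the FDR among all tested genes. Among 13 further nucleoporins, NDC1, a membrane nucleoporin that anchors the pore in the envelope as NUP210 also spans it, fell (-1.66, from 32.7 ± 0.164 to 10.4 ± 1.88 FPKM, adjusted p = 2.9e-06). RAE1, which binds the NUP98 protein and takes part in mRNA export, rose (1.15, from 32.9 ± 0.215 to 73.5 ± 9.33 FPKM, adjusted p = 5.7e-06). RANBP2, the large nucleoporin of the cytoplasmic filaments, was higher by the FDR (0.77), reached 0.85 and the call without DMSO replicate 2, was 0.39 after the GC and length correction, and is uncertain because near-identical copies of parts of it lie elsewhere in the genome. TPR, the main basket protein, had overlapping groups (0.01, 95% interval -0.18 to 0.20).

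Of the 7 genes of the Ran cycle, 2 were called lower, 0 were called higher and 5 were lower by the FDR, beside 17.8%, 13.9% and 42.8% of all tested genes. RANBP1, a cofactor that helps to dismantle receptor complexes in the cytoplasm, had 287.1, 267.4 and 277.0 FPKM with DMSO and 123.8, 109.6 and 106.8 FPKM with BCT (-1.29, adjusted p = 1e-06). NUTF2, the carrier that brings Ran back into the nucleus, had 214.0, 206.7 and 206.4 FPKM with DMSO and 111.5, 95.5 and 99.7 FPKM with BCT (-1.03, adjusted p = 2e-06). Their groups lay far apart, and RANBP1 and NUTF2 were at -0.52 and -0.27, uncalled, with equal sums. RAN itself (-0.76, from 292.8 ± 7.68 to 173.0 ± 14.5 FPKM) and RCC1, which loads Ran with GTP on chromatin (-0.81, from 82.4 ± 1.08 to 46.8 ± 0.621 FPKM), were lower by the FDR, and RAN turned to 0.01 with equal sums. RANGAP1, which makes Ran hydrolyse its GTP in the cytoplasm, had overlapping groups (-0.06, interval -0.19 to 0.07). The median of the 7 genes was -0.76, against -0.04 for all tested genes, and 0.01 against 0.72 with equal sums. CSE1L, which returns importin alpha to the cytoplasm, was lower by the FDR (-0.23) and was -0.36 after the GC and length correction, 0.16 without MIR6087 and 0.54 with equal sums.

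Of 17 genes of mRNA export, which mostly does not use the importin beta family, THOC3, a part of the THO complex, fell (-1.24, from 40.2 ± 2.40 to 17.1 ± 2.1 FPKM, adjusted p = 4.9e-06). NXF1, the main mRNA export receptor, rose from 29.8, 33.6 and 33.6 FPKM with DMSO to 64.1, 80.5 and 80.9 FPKM with BCT (1.21, adjusted p = 7.3e-06). By the FDR alone 8 of the 17 were lower and 8 higher, where 42.8% and 39.3% of all tested genes were.

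**Figure D5:**
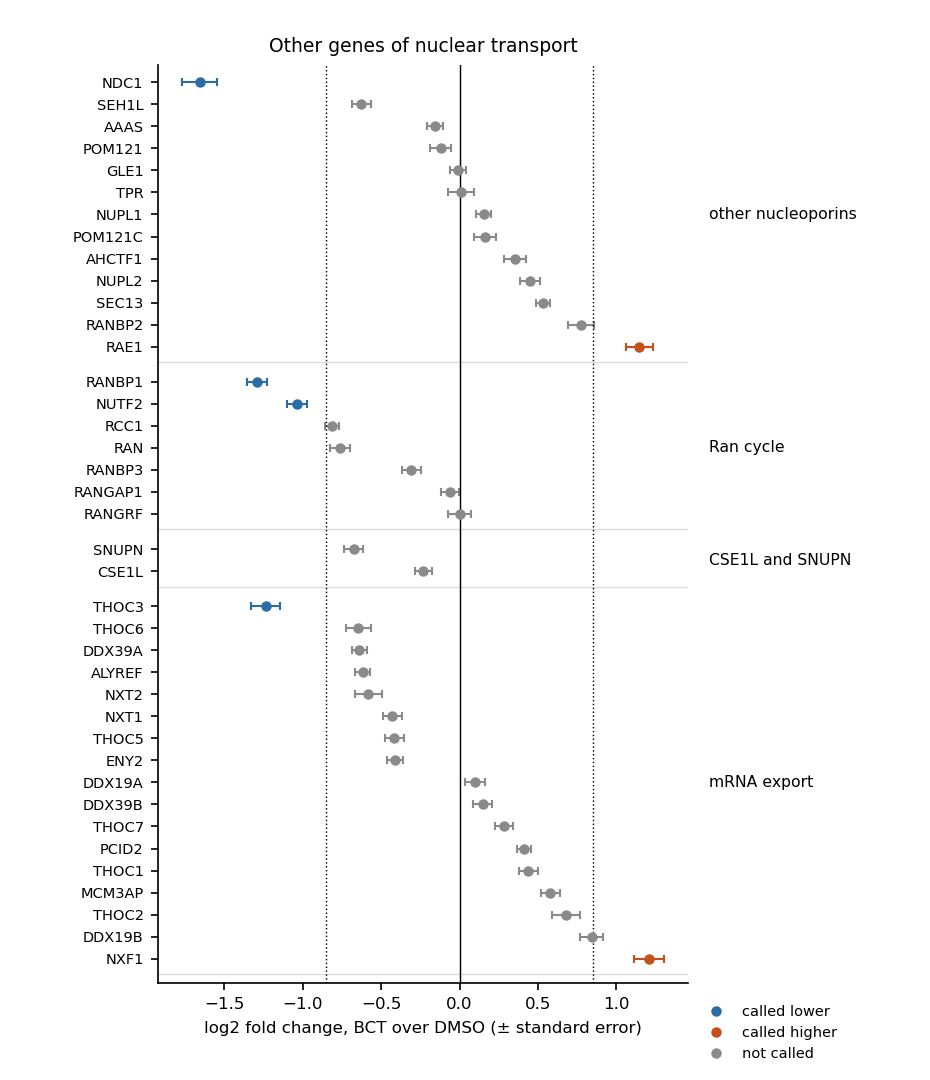
Log2 fold change of BCT over DMSO (± standard error from limma) for the 39 other genes of nuclear transport, by class, with the threshold of 0.85 as dotted lines. NDC1, RANBP1, NUTF2 and THOC3 lie left of the threshold, RAE1 and NXF1 lie right of it, and 6 of the 7 Ran cycle genes lie left of 0 as deposited, against 3 with equal FPKM sums.

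Promoters of the members were searched for letters recognised by regulators of growth-related genes. RefSeq promoters of assembly GRCh38.p14, 250 bases before to 50 bases after each start, were matched for 41 of the 48 members (53 promoters), and searched on both strands for the CCAAT box (CCAAT), the E-box (CACGTG), E2F letters (TTTGGCGC, TTTCCCGC, TTTGCCGC or TTTCGCGC) and NRF1 letters (CGCATGCG). The CCAAT box was found in 49.1% of member promoters, against 34.6% of all 35116 promoters and 35.2% of those of tested genes. Some genes have overlapping promoters, so the same CCAAT boxes of NUP98, XPO4 and NUP210L were counted more than once. Overlaps were not removed from the background either, and the difference was not tested. The E-box was found in 13.2% of member promoters, against 7.26% and 9.43%. E2F letters were found in 5.66%, against 3.31% and 4.98%, and NRF1 letters in 7.55%, against 2.02% and 3.38%. The counts are small, with E2F letters in the promoters of IPO11, IPO7 and NUP155 and NRF1 letters in those of IPO11, NUP107, NUP50 and NUP62. The first promoters of the called members are shown because these genes carry the calls, in lower case with every match in capitals. A match in reverse reads ATTGG, and the NUP210 promoter, which held no match, is not printed.
IPO5, chr13:97953425-97953724, plus strand, with a CCAAT box: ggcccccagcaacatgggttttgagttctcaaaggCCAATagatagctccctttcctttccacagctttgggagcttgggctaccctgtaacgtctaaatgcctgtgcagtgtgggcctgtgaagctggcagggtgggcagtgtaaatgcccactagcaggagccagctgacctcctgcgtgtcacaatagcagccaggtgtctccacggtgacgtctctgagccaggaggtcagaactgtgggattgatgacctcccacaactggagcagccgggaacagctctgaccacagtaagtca
IPO9, chr1:201828907-201829206, plus strand, with a reversed CCAAT box: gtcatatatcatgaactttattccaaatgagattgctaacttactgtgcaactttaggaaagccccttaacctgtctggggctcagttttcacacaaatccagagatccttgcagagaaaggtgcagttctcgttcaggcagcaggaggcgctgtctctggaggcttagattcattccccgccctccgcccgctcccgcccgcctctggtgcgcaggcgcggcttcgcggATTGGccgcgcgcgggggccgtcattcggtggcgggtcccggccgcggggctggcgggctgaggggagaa
IPO4, chr14:24188767-24189066, minus strand, with an E-box: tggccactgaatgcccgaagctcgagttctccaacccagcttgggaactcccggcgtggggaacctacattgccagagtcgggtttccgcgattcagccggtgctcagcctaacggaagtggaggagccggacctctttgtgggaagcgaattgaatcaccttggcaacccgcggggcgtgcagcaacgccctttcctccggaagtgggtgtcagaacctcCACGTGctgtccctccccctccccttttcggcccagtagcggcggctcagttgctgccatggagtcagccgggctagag
TNPO1, chr5:72816411-72816710, plus strand, with a CCAAT box: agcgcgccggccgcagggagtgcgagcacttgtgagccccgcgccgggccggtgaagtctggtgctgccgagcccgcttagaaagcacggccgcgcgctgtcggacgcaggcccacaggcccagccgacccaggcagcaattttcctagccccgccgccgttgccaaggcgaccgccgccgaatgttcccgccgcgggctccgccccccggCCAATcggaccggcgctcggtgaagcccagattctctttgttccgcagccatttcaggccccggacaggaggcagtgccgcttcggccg
NUP62CL, chrX:107206384-107206683, minus strand, with a pair of CCAAT boxes: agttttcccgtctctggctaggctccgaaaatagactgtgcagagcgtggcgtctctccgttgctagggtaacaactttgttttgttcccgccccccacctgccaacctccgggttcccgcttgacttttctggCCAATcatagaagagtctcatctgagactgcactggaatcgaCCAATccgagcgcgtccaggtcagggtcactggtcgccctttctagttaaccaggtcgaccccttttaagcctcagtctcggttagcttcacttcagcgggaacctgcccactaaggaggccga
Called genes of both directions thus hold a CCAAT box in this window, and so do uncalled members such as KPNA2, XPO1 and NUP93. A match describes these letters alone, and binding was not measured.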

How the data were processed

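RNA-seq libraries (TruSeq RNA v2) of 22RV1 cells were trimmed by the authors with Trimmomatic 0.38 and aligned with HISAT2 to hg19/GRCh37. The authors deposited FPKM values per gene for 6 samples. The study's methods name StringTie for the assembly and the submitters' processing notes name HTSeq. The gene annotation is not given in the sources used here. FPKM holds no read counts, so no count test was run.

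Genes averaging 1 FPKM or more (12729) were fitted on the log2(FPKM + 0.1) scale, where the change of low genes is understated, by limma 3.58.1 (R 4.3.3, eBayes with trend), with Benjamini-Hochberg adjustment over all of them. Sums and shares were compared by two-sided exact permutation tests. Samples were grouped by their titles. The members, lists, motifs and thresholds were chosen with earlier results of these data known. All members were to be named, with values per sample for called members, those nearest the threshold and 10 fixed genes (XPO1, KPNB1, KPNA2, TNPO1, XPO5, XPOT, NUP62, NUP98, NUP153 and NUP107). From the pathway list the called genes and RAN, RCC1, RANGAP1, CSE1L, RANBP2, TPR and NXF1 were to be named. The symbols NUPL1 and NUPL2 (NUP58 and NUP42) are in the pathway list. Gene positions are from GENCODE v44 lifted to GRCh37, and promoters from RefSeq. Some markers are not reported here. Alternatives covered the pseudocount, filter, scaling, FDR, variance model, a correction for GC content and length (values for 97.4% of tested genes), the replicate block and each sample left out.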

Additional observations from a re-analysis of the deposited data

How the results depend on the processing

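The 12 called genes (members and pathway genes) kept their direction under every alternative run. Scaling mattered most. Members called lower numbered 0 with equal FPKM sums, 2 with equal sums without MIR6087 and 3 in a test against the fold change threshold. They numbered 6 after the GC and length correction, alone or with the replicate block. Members called higher numbered 2 without a filter, 16 with equal sums, 8 without MIR6087, 2 after quantile normalization and 0 after the GC and length correction, alone or with the replicate block. Of all tested genes, 5.25% were called lower and 44.1% higher with equal sums, and 9.49% and 26.5% without MIR6087. Shares over all genes under the other settings are not given here, so those counts of members cannot be set against them. Pathway genes called lower numbered 1 with equal sums, and those called higher 16 with equal sums and 7 without MIR6087. The members' median was -0.08 with a filter at 5 FPKM, 0.71 with equal sums, 0.33 without MIR6087, -0.02 by median of ratios, 0.01 by quantiles and -0.14 after the GC and length correction with or without the block, and lay between -0.08 and -0.03 when a sample was left out. The ratios of summed FPKM were 1.57 and 1.22 (nucleoporins), 1.74 and 1.34 (importin alphas), 1.46 and 1.13 (import receptors) and 1.48 and 1.15 (exportins) with equal sums and without MIR6087, and that of the import receptors lay between 0.85 and 0.88 when a sample was left out. Pathway genes called higher were 2 or 3 when a sample was left out.

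Among members and the pathway genes named here, NUPL1 aside, uncalled genes that changed sign with equal sums were IPO11 (0.68), IPO7 (0.37), KPNA2 (0.74), KPNA3 (0.75), KPNA6 (0.66), KPNB1 (0.45), NUP107 (0.11), NUP155 (0.13), NUP188 (0.33), NUP35 (0.69), NUP43 (0.41), NUP50 (0.63), NUP50-AS1 (0.52), NUP62 (0.04), NUP85 (0.09), NUP93 (0.09), XPO1 (0.64), XPO5 (0.67), XPO7 (0.73), XPOT (0.26), RAN (0.01), RANGAP1 (0.71) and CSE1L (0.54). Over the whole pathway list, genes below 0 went from 8 to 1 (mRNA export) and from 5 to 1 (other nucleoporins). Without MIR6087 they were IPO11 (0.31), KPNA2 (0.36), KPNA3 (0.37), KPNA6 (0.28), KPNB1 (0.07), NUP35 (0.31), NUP43 (0.03), NUP50 (0.25), NUP50-AS1 (0.15), XPO1 (0.26), XPO5 (0.29), XPO7 (0.35), RANGAP1 (0.33) and CSE1L (0.16). By median of ratios they were KPNA2 (0.01), KPNA3 (0.02) and XPO7 (0.00), and by quantiles KPNA2 (0.28), XPO1 (0.04), XPO7 (0.11) and RANGAP1 (0.08). After the GC and length correction, with or without the block, they were IPO8 (-0.07), KPNA1 (-0.04), NUP153 (-0.01), NUP205 (0.00), NUP37 (-0.01), TPR (-0.32) and RANGAP1 (0.16). With a sample left out, KPNA2 lay between -0.05 and 0.00, KPNA3 between -0.06 and 0.02, TNPO2 between -0.02 and 0.04 and TPR between -0.06 and 0.11. The scalings by a single factor per sample (equal sums, with or without MIR6087, and median of ratios) shift all genes together by construction. Quantile normalization and the GC and length correction do not, and the cause of the other changes was not tested.

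The labels do not say whether the replicate numbers pair the samples. Deviations of same-numbered samples from their group means correlated with r = 0.116, 0.0328 and 0.0342. The mean was 0.0610, against -0.0306 for samples with other numbers, which cannot settle whether they were paired. Over the tested members r was -0.0227, 0.0823 and -0.426. With the replicate block alone 5 members were called lower and 1 higher. FPKM gives no read numbers, so counting error is unknown, and alternatives set for count tables were not run.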
